A study of Mus musculus with 16 samples.

Results

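Enzymes that remove reactive aldehydes, ketones, quinones and epoxides were examined in mouse myotubes with and without electrical stimulation. The set holds 10 genes chosen by symbol out of 48432 gene identifiers in the table: the aldo-keto reductases Akr1a1, Akr1b3, Akr1b8 and Akr1b10, the carbonyl reductases Cbr1 and Cbr3, the epoxide hydrolase Ephx1, the UDP-glucose dehydrogenase Ugdh, and the aldehyde dehydrogenases Aldh2 and Aldh3a2. All 10 were present and passed the filter on low counts. C2C12 cells are an established line of mouse myoblasts, which fuse to form contracting myotubes when serum is lowered. The cells, at passage 4 to 8, had differentiated for 5 days in both groups. Control myotubes received no stimulation. The stimulated group received electrical pulse stimulation (EPS), an electric field across the culture: pulses of 6 ms at 1 Hz, 2.75 V/mm, a duty cycle of 0.6%, with the polarity reversed at 0.5 Hz. The sources used here do not say how long the stimulation lasted. There were 4 control and 4 EPS libraries of total RNA. Nothing in the labels calls the libraries separate cultures, and each p-value below therefore reflects the variation among these libraries alone, which could be technical.

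Carbonyl compounds arise in cells from lipid peroxidation, from sugars and from xenobiotics. Aldo-keto reductases and carbonyl reductases use NADPH to turn them into alcohols, aldehyde dehydrogenases oxidise aldehydes to acids, and epoxide hydrolases add water to epoxides. UDP-glucose dehydrogenase makes UDP-glucuronate, the donor with which glucuronosyltransferases conjugate the products. Several of these genes are known targets of the transcription factor NRF2 (Nfe2l2), which binds antioxidant response elements when cells meet oxidants or electrophiles.

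Depth was 12.6 to 20.7 M fragments (M, 10 to the power of 6) in 7 libraries and 0.354 M in control replicate 2. A level is given as CPM, the fragments of a gene per M fragments of a library after TMM scaling. The limit that a count of 0 allows, 3 fragments, was 8.52 CPM in control replicate 2 and 0.138 to 0.241 CPM in the other 7, for counting error only. All 10 myotube markers were detected, and their summed level was 21567 to 23448 CPM in control and 14239 to 18001 CPM in EPS. None of these 10 passed the edgeR test, 6 had an unadjusted p under 0.05, 7 passed with the replicate number as a block, and 3 passed with DESeq2. The edgeR log2 fold change was below 0 for 9 of them and 0.32 for Ryr1. Of all 13987 genes tested by edgeR, 2590 had an unadjusted p under 0.05, and with the block 1023 rose and 668 fell. DESeq2 called 659 of 15245 genes as higher and 288 as lower. Summed markers of dividing myoblasts spanned 374 to 789 CPM in control and 291 to 646 CPM in EPS, and those of fibroblasts and matrix 1446 to 4531 CPM and 1164 to 3548 CPM. With the block, 2 of the 4 tested fibroblast and matrix markers passed, Dcn and Pdgfra. Their edgeR log2 fold changes without the block were -0.47 and 0.91. Leukocyte, adipocyte and hepatocyte markers summed to at most 0.412 CPM, with Adgre1 and Alb at 0 fragments, while endothelial markers reached 13.2 CPM in 1 EPS library. The summed myotube level did not overlap between the groups, and its part in the results below was not tested. Fewer cells of a type and less RNA per cell cannot be told apart in such bulk libraries.

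Of the 10 enzymes, Cbr3 and Ephx1 rose in EPS myotubes and none fell (edgeR quasi-likelihood test, Benjamini-Hochberg adjusted p under 0.05). Among all 13987 genes tested, 2.3% were higher and 0.758% were lower. Unadjusted p was under 0.05 for 4 of the 10, all of them higher in EPS, as for 12.2% of all genes tested. DESeq2 called 3 of the 10 as higher, adding Aldh2, and none as lower. Of the 15245 genes to which DESeq2 gave an adjusted p, 4.32% were higher and 1.89% were lower. With the replicate number as a block, 4 of the 10 rose, Aldh2 and Aldh3a2 being added, and 0 fell, against 7.31% higher and 4.78% lower of all genes. The median log2 fold change of the 10 was 0.31, that of all tested genes was 0.01, and 7 of the 10 values were above 0. CPM did not overlap between groups for 4 enzymes with EPS higher, namely Cbr3, Ephx1, Aldh2 and Aldh3a2, and for Akr1b10 with EPS lower. Over all genes tested, 9.32% had such non-overlapping groups with EPS higher and 4.83% with EPS lower.

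**Figure D1:**
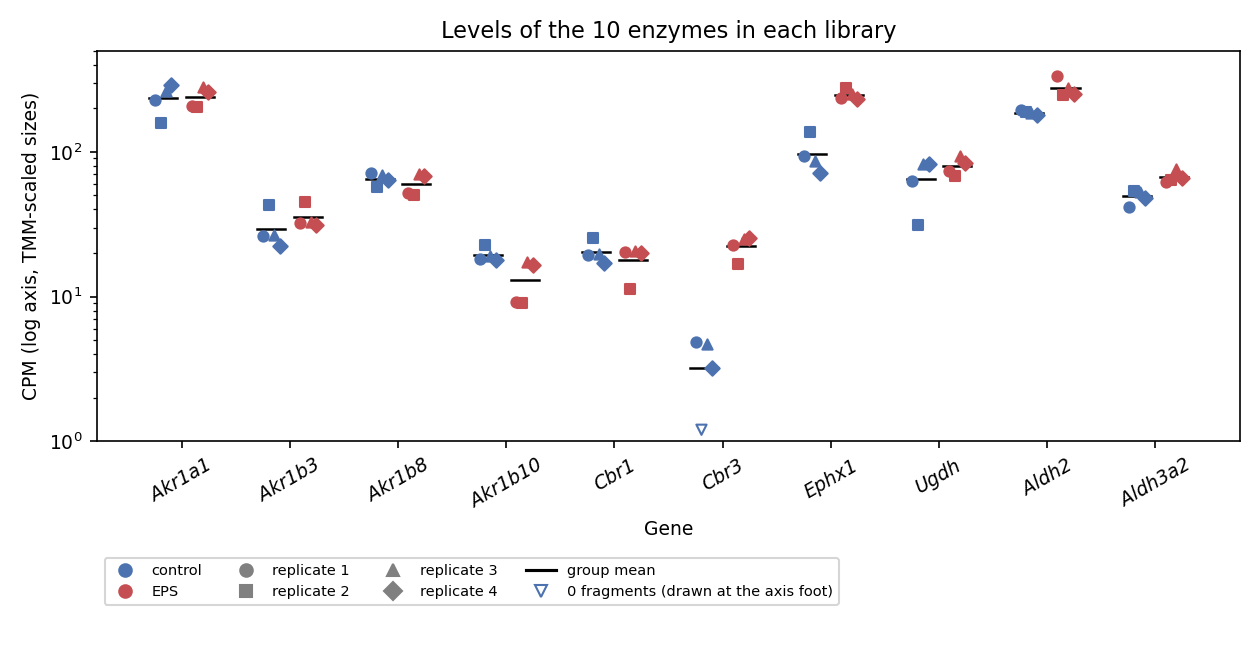
CPM of each of the 10 enzymes (log axis) in the 4 control libraries (blue) and 4 EPS libraries (red), with marker shapes for replicate numbers and black bars for group means. The groups are apart for Cbr3, Ephx1, Aldh2, Aldh3a2 and Akr1b10, and the open triangle stands for the 0 fragments of Cbr3 in control replicate 2.

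Stretches upstream of the start sites are shown for the genes that rose, for Cbr1 as the neighbour and relative of Cbr3, and for Ugdh. Ugdh is included because its window alone among the members held the core of the antioxidant response element. Sequences and start sites are from RefSeq (GRCm38), which has such a window for 8 of the 10 enzymes, Aldh2 and Akr1b3 being the others. Each is written 5′ to 3′ on the gene's strand in lower case and stops where a GENCODE exon of the gene begins. Capitals mark matches on either strand to TGACNNNGC, the antioxidant response element core, or to GCGTG, the core of the xenobiotic response element.
Cbr3, chr16:93682969-93683214 (+): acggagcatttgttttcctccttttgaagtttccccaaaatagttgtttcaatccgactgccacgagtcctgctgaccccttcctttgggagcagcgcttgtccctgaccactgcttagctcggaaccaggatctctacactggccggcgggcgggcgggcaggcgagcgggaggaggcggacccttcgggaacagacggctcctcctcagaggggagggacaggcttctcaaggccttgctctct
Cbr1, chr16:93607587-93607836 (+): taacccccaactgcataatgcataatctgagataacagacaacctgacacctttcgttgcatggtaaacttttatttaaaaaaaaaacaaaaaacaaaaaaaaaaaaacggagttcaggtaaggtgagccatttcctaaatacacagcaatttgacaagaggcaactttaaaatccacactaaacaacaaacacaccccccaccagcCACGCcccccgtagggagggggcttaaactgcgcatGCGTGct
Ephx1, chr1:181017570-181017819 (-): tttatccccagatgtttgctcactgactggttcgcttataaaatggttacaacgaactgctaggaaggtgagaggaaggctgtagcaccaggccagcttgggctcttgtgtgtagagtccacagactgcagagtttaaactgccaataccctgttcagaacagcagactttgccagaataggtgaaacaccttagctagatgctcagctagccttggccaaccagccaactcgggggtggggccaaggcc
Ugdh, chr5:65435950-65436092 (-): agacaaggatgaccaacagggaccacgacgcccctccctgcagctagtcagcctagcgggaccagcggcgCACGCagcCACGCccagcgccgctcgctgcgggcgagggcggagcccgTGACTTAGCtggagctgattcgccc
The RefSeq start sites of Cbr1 and Ephx1 lie inside the longer GENCODE genes, so other starts exist that these windows do not cover. The RefSeq start of Ugdh also lies inside its GENCODE gene. The printed Ugdh stretch stops at 65435950, whereas its full window runs on to 65435843, next to that start.

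In the full windows of 250 bases, the antioxidant core occurred in 3338 of 32851 RefSeq windows (10.2%) and the xenobiotic core in 9250 (28.2%). Of the 8 enzymes with a window, only Ugdh held the antioxidant core. Its matches were TGACTTAGC on the gene's strand at -132 to -124 from the start and TGACCACGC on the other strand at -94 to -86, the latter inside GENCODE's first exon and overlapping a match to the xenobiotic core. That core matched 3 times in Ugdh, 2 times in Cbr1, and once each in Akr1b8 and Aldh3a2. The windows of Cbr3, Ephx1, Akr1a1 and Akr1b10 held neither. A match describes letters only, and the window of Cbr3, the enzyme with the highest fold change here, says nothing of sites elsewhere.

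Cbr1 and Cbr3 are neighbouring cytosolic short-chain reductases on chromosome 16 that act on quinones and other ketones, and Cbr1 also acts on prostaglandins. Their coding sequences are 77.4% identical, but the transcripts shared only 1 stretch of 50 bases. Cbr3 (ENSMUSG00000022947, chr16:93683215-93690990, plus strand, mm10) had 4.82, 0, 4.72 and 3.20 CPM in control replicates 1 to 4 and 22.6, 16.8, 25.2 and 25.3 CPM in EPS replicates 1 to 4. These came from 89, 0, 60 and 67 fragments in control and 438, 209, 486 and 547 in EPS. Every EPS library lay above every control library, and all 4 also lay above the 8.52 CPM that the 0 in the shallow control replicate 2 allows. Control averaged 3.19 ± 2.25 CPM and EPS 22.4 ± 3.98 CPM (SD, n = 4). The fitted rise was 5.49-fold, a log2 fold change of 2.46 (SE 0.29), with an edgeR adjusted p of 0.00229. Leaving out each library in turn gave log2 fold changes of 2.30 to 2.59, all past the threshold. On log2(FPKM + 0.1), limma's adjusted p was 0.164, and the call was lost.

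Cbr1 (ENSMUSG00000051483, chr16:93605853-93610505, plus strand) did not pass the test. It had 19.2, 25.6, 19.6 and 17.1 CPM in control replicates 1 to 4 and 20.2, 11.3, 20.5 and 19.9 CPM in EPS replicates 1 to 4. The groups overlapped, with EPS replicate 2 below all the others. The log2 fold change was -0.10 (SE 0.23, edgeR adjusted p = 0.938), with an approximate 95% interval of -0.54 to 0.34. It was 0.07 without EPS replicate 2 and 0.03 with the replicate block, so its sign differed between settings. The log2 ratio of Cbr3 to Cbr1 was -1.97, -7.65, -2.02 and -2.37 in control and 0.16, 0.56, 0.29 and 0.34 in EPS. It was below 0 in every control library and above 0 in every EPS library. The group means differed by 3.84 (exact two-sided permutation p = 0.0286, the smallest that 4 against 4 allows, and 0.0714 adjusted over 5 ratios). Without control replicate 2, whose value rests on 0 fragments of Cbr3 and 9 of Cbr1, the difference was 2.46. On FPKM, which is per length and so comparable between genes, Cbr3 made up 16.6% ± 11.4 (SD, n = 4) of the sum of both in control and 60.9% ± 2.95 (SD, n = 4) in EPS. The Cbr3 share was 0% in the shallow control replicate 2 and 18.4% to 24.7% in the other controls. The sum of both was 14.1 ± 2.15 FPKM in control and 25.9 ± 4.61 FPKM in EPS (SD, n = 4).

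**Figure D2:**
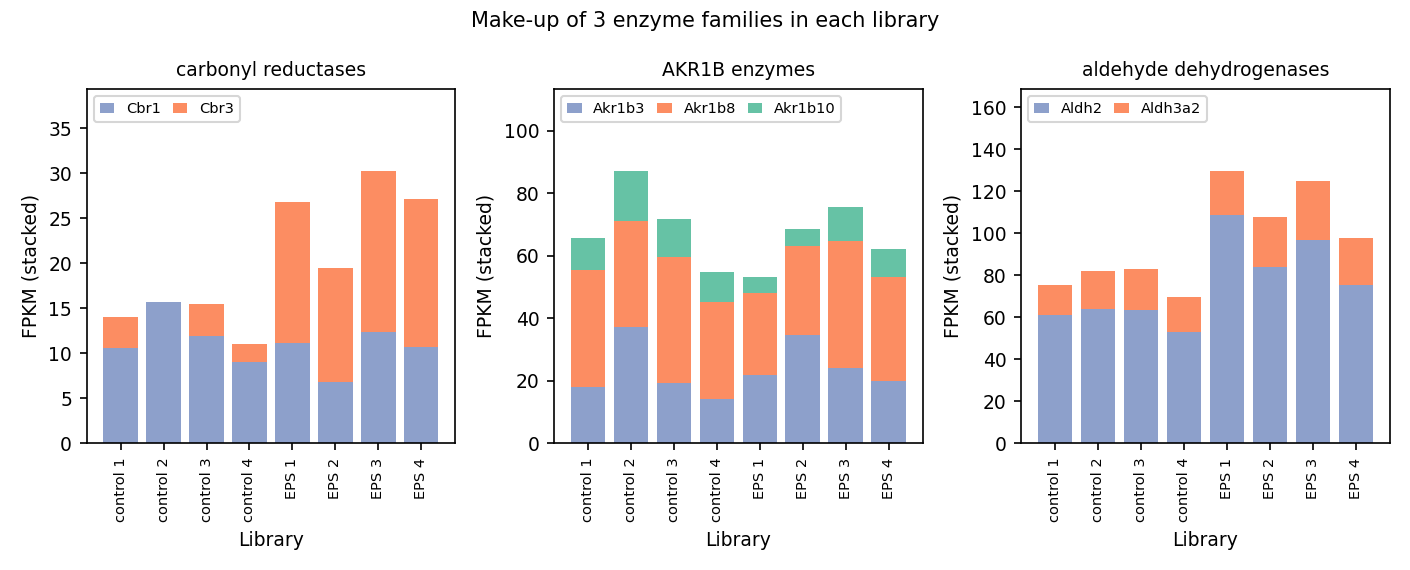
Stacked FPKM of the carbonyl reductases, the AKR1B enzymes and the aldehyde dehydrogenases in each of the 8 libraries. Cbr3 is the smaller part of its pair in every control library and the larger part in every EPS library, and the Akr1b10 part is smallest in EPS replicates 1 and 2.

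Akr1a1, the aldehyde reductase that also reduces glucuronate on the way to ascorbate in mice, had the highest FPKM of the 10 in both groups. Akr1a1 (ENSMUSG00000028692, chr4:116636510-116651680, minus strand) had 228, 159, 262 and 289.8 CPM in control replicates 1 to 4 and 209, 203, 280.1 and 261 CPM in EPS replicates 1 to 4. The EPS values lay inside the control range. Its log2 fold change was 0.00 (SE 0.20, edgeR adjusted p = 0.998), with an approximate 95% interval of -0.40 to 0.40.

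Akr1b3 (ENSMUSG00000001642, chr6:34302434-34317478, minus strand) is mouse aldose reductase, the enzyme that turns glucose into sorbitol in the polyol pathway. It had 26.1, 42.6, 26.4 and 22.4 CPM in control replicates 1 to 4 and 32.2, 45.2, 33.0 and 31.3 CPM in EPS replicates 1 to 4. Every EPS library was above 3 of the controls, but control replicate 2, with 15 fragments of this gene, was above 3 of the EPS libraries. The log2 fold change was 0.40 (SE 0.21, edgeR adjusted p = 0.344), which did not pass. Of the 50-base stretches of Akr1b3 transcripts, 9.48% also occur in other genes, chiefly Gm6644, Gm6736 and Gm12138, to which the counting could have assigned Akr1b3 fragments. These 3 held 1993, 1051 and 1289 fragments over all 8 libraries, and their own log2 fold changes were 0.75, 0.68 and 0.69, none past the threshold. With fragments of such copies added, an alternative chosen after seeing the data, Akr1b3 had a log2 fold change of 0.58 (SE 0.15, edgeR adjusted p = 0.0729).

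Akr1b8 and Akr1b10 are adjacent genes on chromosome 6 for closely related AKR1B reductases that act on aliphatic and aromatic aldehydes. Their coding sequences are 85.1% identical, against 71.6% and 72.5% with Akr1b3, and 31 stretches of 50 bases occur in both, so a small share of fragments could have been split between them. Akr1b8 (ENSMUSG00000029762, chr6:34354119-34368463, plus strand) had 71.0, 56.8, 69.0 and 64.2 CPM in control replicates 1 to 4 and 52.1, 50.6, 70.2 and 67.9 CPM in EPS replicates 1 to 4. The EPS replicates 1 and 2 were below all controls, whereas replicates 3 and 4 were within their range. The log2 fold change was -0.14 (SE 0.16, edgeR adjusted p = 0.699).

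Akr1b10 (ENSMUSG00000061758, chr6:34384218-34396950, plus strand) was the enzyme with the lowest fold change, and it did not pass the test. It had 18.1, 22.7, 19.2 and 18.0 CPM in control replicates 1 to 4 and 9.22, 8.98, 17.3 and 16.6 CPM in EPS replicates 1 to 4. All 4 EPS libraries lay below all 4 controls, by a small margin for EPS replicates 3 and 4 and a wide one for replicates 1 and 2. Means were 19.5 ± 2.21 CPM in control and 13.03 ± 4.55 CPM in EPS (SD, n = 4), with a log2 fold change of -0.53 (SE 0.26) and an edgeR adjusted p of 0.306. The adjusted p was 0.170 with the replicate block. The replicate numbers were also split into sets, a choice of the analysis that no label defines. In 1 fit over all libraries with an effect for each set of numbers, replicates 1 and 2 gave -1.04 and replicates 3 and 4 gave -0.13. The test of that difference, run across all genes, gave an unadjusted p of 0.0113 and an edgeR adjusted p of 0.383 for Akr1b10. No gene passed that test, and 1483 of the 13987 had an unadjusted p under 0.05. Akr1b10 had the largest such difference of the 10 enzymes, and the next smallest unadjusted p of that edgeR test was 0.0908, for Akr1b8. The set of replicates 1 and 2 includes the shallow control replicate 2, which had 8 fragments of Akr1b10.

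Within the libraries, the log2 ratio of Akr1b10 to Akr1b8 was -1.97, -1.32, -1.84 and -1.83 in control and -2.48, -2.48, -2.01 and -2.03 in EPS. All EPS ratios were below all control ratios, the closest pair being control replicate 1 and EPS replicate 3. The means differed by -0.51 (exact two-sided permutation p = 0.0286, adjusted 0.0714). Without control replicate 2, whose value rests on 8 fragments of Akr1b10 and 20 of Akr1b8, the difference was -0.37. The ratios of Akr1b8 to Akr1b3 and of Akr1b3 to Akr1a1 overlapped between groups and differed by -0.42 (exact permutation p = 0.229, adjusted 0.381) and 0.25 (p = 0.571, adjusted 0.571). Both overlaps came from the shallow control replicate 2 alone, with 15 fragments of Akr1b3. Without that library neither ratio overlapped, and the differences were -0.68 and 0.62 (exact permutation test, adjusted p = 0.0714 for each). The smallest unadjusted p that 3 against 4 libraries allow in this test is 0.0571. These were the largest differences among the fits that left out 1 library. Across those fits they spanned -0.68 to -0.22 and 0.03 to 0.62, with adjusted p up to 0.667 and 0.914 by the same test. Akr1b10 accounted for 17.03% ± 1.31 of the summed FPKM of the AKR1B enzymes in control and 11.5% ± 3.25 in EPS (SD, n = 4). That sum was 69.8 ± 13.6 FPKM in control and 64.9 ± 9.52 FPKM in EPS (SD, n = 4). With Akr1a1, which held 71.5% of the control and 73.1% of the EPS total, the 4 aldo-keto reductases summed to 246 ± 14.4 and 241 ± 31.0 FPKM.

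Ephx1, the microsomal epoxide hydrolase that opens xenobiotic epoxides to diols, rose in EPS myotubes. Ephx1 (ENSMUSG00000038776, chr1:180976210-181020904, minus strand) had 93.9, 136, 86.7 and 71.6 CPM in control replicates 1 to 4 and 237, 275, 251 and 233 CPM in EPS replicates 1 to 4. The lowest EPS library was well above the highest control, which was the shallow replicate 2 with 48 fragments of the gene. Means were 97.1 ± 27.8 CPM in control and 249 ± 18.9 CPM in EPS (SD, n = 4). The rise was 2.66-fold, a log2 fold change of 1.41 (SE 0.20), with an edgeR adjusted p of 0.00485. It was past the threshold without any 1 library, with log2 fold changes of 1.26 to 1.56. By limma the adjusted p was 0.0672 on log2(FPKM + 0.1) and 0.0532 on log2(FPKM + 1). From replicates 1 and 2 alone it was 0.0530 by edgeR. The pseudogene Gm36961, which overlaps Ephx1 on the same strand and shares 32 of its 50-base stretches, had 0 fragments in every library.

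Ugdh (ENSMUSG00000029201, chr5:65413221-65435949, minus strand), which supplies UDP-glucuronate for conjugation and for matrix polysaccharides, did not pass. It had 62.8, 31.3, 82.0 and 81.9 CPM in control replicates 1 to 4 and 73.9, 68.3, 93.2 and 83.4 CPM in EPS replicates 1 to 4. The groups overlapped, and the lowest value, from control replicate 2, rests on 11 fragments. The log2 fold change was 0.22 (SE 0.23, edgeR adjusted p = 0.661), with an approximate 95% interval of -0.23 to 0.67. The 2 other genes annotated over it on its strand held few fragments, at most 30 in a library.

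Both aldehyde dehydrogenases were higher in every EPS library than in any control library, but neither passed the test without the block. Aldh2, the mitochondrial enzyme that oxidises acetaldehyde and the lipid peroxidation product 4-hydroxynonenal, lies at chr5:121566027-121593824 on the minus strand (ENSMUSG00000029455). It had 196.0, 188, 185 and 179.6 CPM in control replicates 1 to 4 and 335, 248, 278 and 249.6 CPM in EPS replicates 1 to 4. The controls were close together and EPS replicate 1 was the highest library. Means were 187 ± 6.83 CPM in control and 278 ± 40.8 CPM in EPS (SD, n = 4), a log2 fold change of 0.57 (SE 0.15), with an edgeR adjusted p of 0.0773. With the replicate block the log2 fold change was again 0.57 and the edgeR adjusted p 0.0184. DESeq2 gave an adjusted p of 0.0169. Aldh2 shares no stretch of 50 bases with another gene, and Gm42879 on the other strand held at most 10 fragments in a library.

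Aldh3a2 (ENSMUSG00000010025, chr11:61223417-61267464, minus strand) is fatty aldehyde dehydrogenase, which oxidises long-chain aliphatic aldehydes. It had 41.7, 54.0, 53.1 and 48.2 CPM in control replicates 1 to 4 and 61.9, 64.1, 76.5 and 65.6 CPM in EPS replicates 1 to 4. No EPS library overlapped the controls, though the gap between EPS replicate 1 and control replicate 2 was small. The log2 fold change was 0.47 (SE 0.15, edgeR adjusted p = 0.128), and 0.48 with an edgeR adjusted p of 0.0279 under the replicate block. With length offsets added to the block the edgeR adjusted p was 0.0515, and that call was lost. Summed FPKM of both dehydrogenases was 77.5 ± 6.11 in control and 115 ± 14.98 in EPS (SD, n = 4). Aldh3a2 held 22.2% ± 2.07 of that sum in control and 20.9% ± 3.00 in EPS. The log2 ratio of Aldh3a2 to Aldh2 differed by -0.11 between the groups (exact two-sided permutation p = 0.486, adjusted 0.571), and the sign turned to 0.02 without EPS replicate 1.

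**Figure D3:**
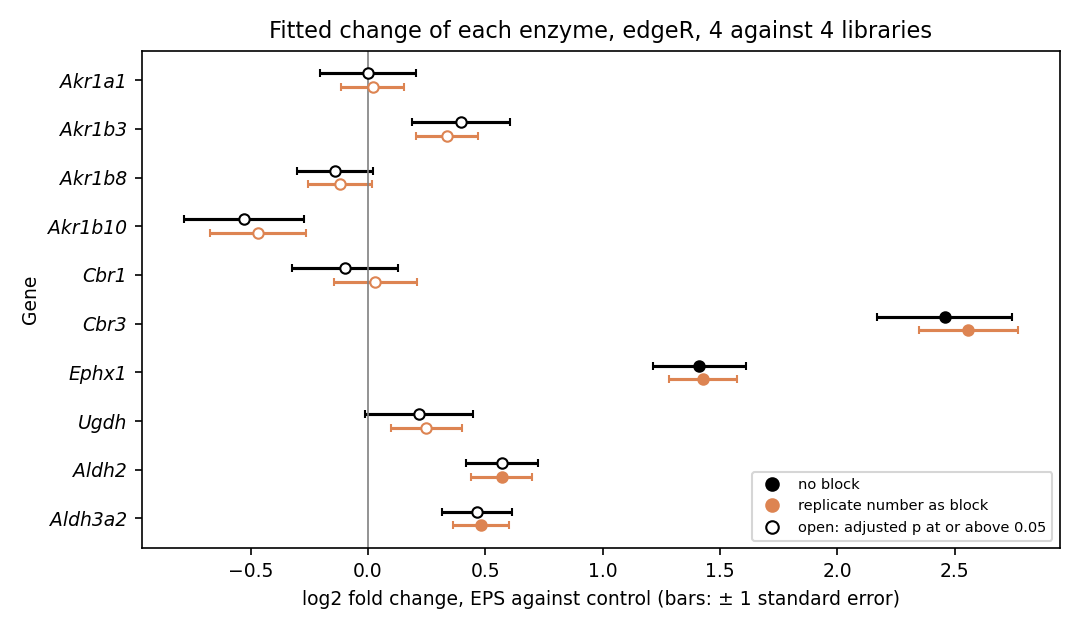
Log2 fold change of each enzyme, EPS against control, with bars of 1 standard error, from edgeR without a block (black) and with the replicate number as a block (orange). Filled points passed an adjusted p of 0.05: Cbr3 and Ephx1 in both fits, and Aldh2 and Aldh3a2 in the fit with the block.

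Ordered by mean FPKM, which allows levels of different genes to be set side by side, control myotubes had Akr1a1 first at 176 ± 21.9 FPKM (SD, n = 4). Aldh2 followed at 60.3 ± 4.95 and Ephx1 at 47.4 ± 21.2 FPKM. Below them came Akr1b8 at 35.8, Ugdh at 25.1, Akr1b3 at 22.0, Aldh3a2 at 17.2, Akr1b10 at 11.95 and Cbr1 at 11.8 FPKM, with Cbr3 last at 2.27 ± 1.67 FPKM. Library ranges of neighbours in this order overlapped except between Akr1a1 and Aldh2 and between Cbr1 and Cbr3. The overlaps of Aldh2 with Ephx1, of Ugdh with Akr1b3 and of Aldh3a2 with Akr1b10 came from the shallow control replicate 2 alone. The means include that library, with Ephx1 at 78.1, Ugdh at 10.2, Akr1b3 at 37.1 and Akr1b10 at 16.2 FPKM. The other controls had 29.3 to 42.3, 25.2 to 33.04, 13.96 to 19.1 and 9.51 to 12.07 FPKM of these genes. In EPS, Akr1a1 was again first at 176 ± 22.7 FPKM, and Ephx1 at 115 ± 18.2 stood above Aldh2 at 91.2 ± 14.5 FPKM, their ranges overlapping. Akr1b8 (32.3), Ugdh (31.0), Akr1b3 (25.03) and Aldh3a2 (23.8 FPKM) came next. Cbr3 at 15.7 ± 2.25 FPKM stood above Cbr1 at 10.2 ± 2.40 and Akr1b10 at 7.53 ± 2.76 FPKM. Its range overlapped that of neither Aldh3a2 nor Cbr1. Cbr3 was thus last of the 10 in control and eighth in EPS.

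Relatives of the 10 enzymes were read from 6 lists, in each of which most tested genes did not pass. Among 7 tested other aldo-keto reductases, 1 rose and none fell, with a median log2 fold change of -0.05. It was Akr1c14, a hydroxysteroid dehydrogenase, at 0.435 ± 0.399 CPM in control and 2.70 ± 0.800 CPM in EPS (SD, n = 4), a log2 fold change of 2.19 (SE 0.48) with an edgeR adjusted p of 0.0389. That call rests on few fragments and was lost in 7 of the 8 fits that left out 1 library, all but the one without EPS replicate 2, with adjusted p up to 0.157. It was also lost from replicates 1 and 2 alone (edgeR adjusted p = 0.314) and by limma on log2(FPKM + 0.1) and log2(FPKM + 1) (adjusted p = 0.112 and 0.0507). Of 27 tested carbonyl, short-chain and medium-chain reductases, 3 rose and none fell, with a median of -0.11. Blvrb, the flavin and biliverdin reductase, went from 7.07 ± 4.78 to 63.7 ± 11.0 CPM (SD, n = 4; log2 fold change 2.83, SE 0.28, edgeR adjusted p = 0.000641), and its call was lost by limma on log2(FPKM + 0.1), with an adjusted p of 0.159. Ptgr1, a reductase of leukotrienes, prostaglandins and alkenals, went from 27.0 ± 3.81 to 75.2 ± 9.33 CPM (SD, n = 4; log2 fold change 1.49, SE 0.17, edgeR adjusted p = 0.00199). Zadh2 had 4.53 ± 1.59 CPM in control and 13.2 ± 2.75 CPM in EPS (SD, n = 4; log2 fold change 1.63, edgeR adjusted p = 0.0197). Its call was lost without EPS replicate 1 or control replicates 1 or 3, with adjusted p up to 0.115, and by limma on log2(FPKM + 0.1), with 0.0672. With the replicate block, Cbr2 (-0.67, edgeR adjusted p = 0.0120) and the muscle reductase Dhrs7c (-0.90, edgeR adjusted p = 0.00631) also fell.

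Of 13 other aldehyde dehydrogenases tested, 1 rose and none fell, with a median log2 fold change of -0.05. Aldh3a1, a cytosolic dehydrogenase of medium-chain and aromatic aldehydes encoded next to Aldh3a2 on chromosome 11, was at 5.99 ± 2.16 CPM in control and 439 ± 92.1 CPM in EPS (SD, n = 4). Its log2 fold change was 6.39 (SE 0.30, edgeR adjusted p = 2.71e-06), beside 0.47 for Aldh3a2. The replicate block added Aldh1a3, a retinaldehyde dehydrogenase, as higher (0.88, edgeR adjusted p = 0.0299) and Aldh3b1 as lower (-0.47, edgeR adjusted p = 0.0432). Among the other epoxide hydrolases only Lta4h, leukotriene A4 hydrolase, was tested. It had 57.6 ± 5.52 CPM in control and 42.2 ± 6.71 CPM in EPS (SD, n = 4; log2 fold change -0.42, edgeR adjusted p = 0.193). That list thus gave 0 calls by edgeR and 0 by DESeq2, with 1 gene at an unadjusted p under 0.05.

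For glucuronidation and UDP-sugar supply, 2 of 12 tested genes rose and none fell, with a median log2 fold change of 0.02. Ugt1a6a, a glucuronosyltransferase of phenols, went from 2.48 ± 1.76 to 16.4 ± 2.60 CPM (SD, n = 4; log2 fold change 2.35, SE 0.29, edgeR adjusted p = 0.00290), a call lost by limma on log2(FPKM + 0.1), with an adjusted p of 0.139. Ugt1a7c had 0 fragments in all controls and 1.299 ± 0.740 CPM in EPS (SD, n = 4), at least 22.7-fold higher than the limit of 3 fragments over the control group. Its edgeR adjusted p was 0.0184, and it reached 0.0676 when control replicate 4 was left out, the call also being lost without EPS replicate 1 or control replicates 1 or 3. By limma its adjusted p was 0.0503 on log2(FPKM + 0.1) and 0.123 on log2(FPKM + 1). The Ugt1a genes overlap on 1 strand and share exons, so how fragments were divided among them is uncertain. Has2, a hyaluronan synthase, fell only with the replicate block (-0.51, edgeR adjusted p = 0.0459). In the list of polyol, glyoxalase and alcohol dehydrogenase genes, 2 of 11 tested rose and none fell, with a median of -0.07. Esd, the esterase that completes glutathione-dependent formaldehyde oxidation, went from 122 ± 13.6 to 595 ± 38.4 CPM (SD, n = 4; log2 fold change 2.30, SE 0.16, edgeR adjusted p = 5.05e-05). Adh7, an alcohol dehydrogenase active on retinol, went from 23.2 ± 13.1 to 387 ± 74.1 CPM (SD, n = 4; log2 fold change 4.34, SE 0.31, edgeR adjusted p = 6.12e-05). Adh7 overlaps 0610031O16Rik on the other strand, and the strand setting of the counting is not given. Sord, sorbitol dehydrogenase and the polyol pathway partner of Akr1b3, passed only with the replicate block (0.97, edgeR adjusted p = 0.00452).

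**Figure D4:**
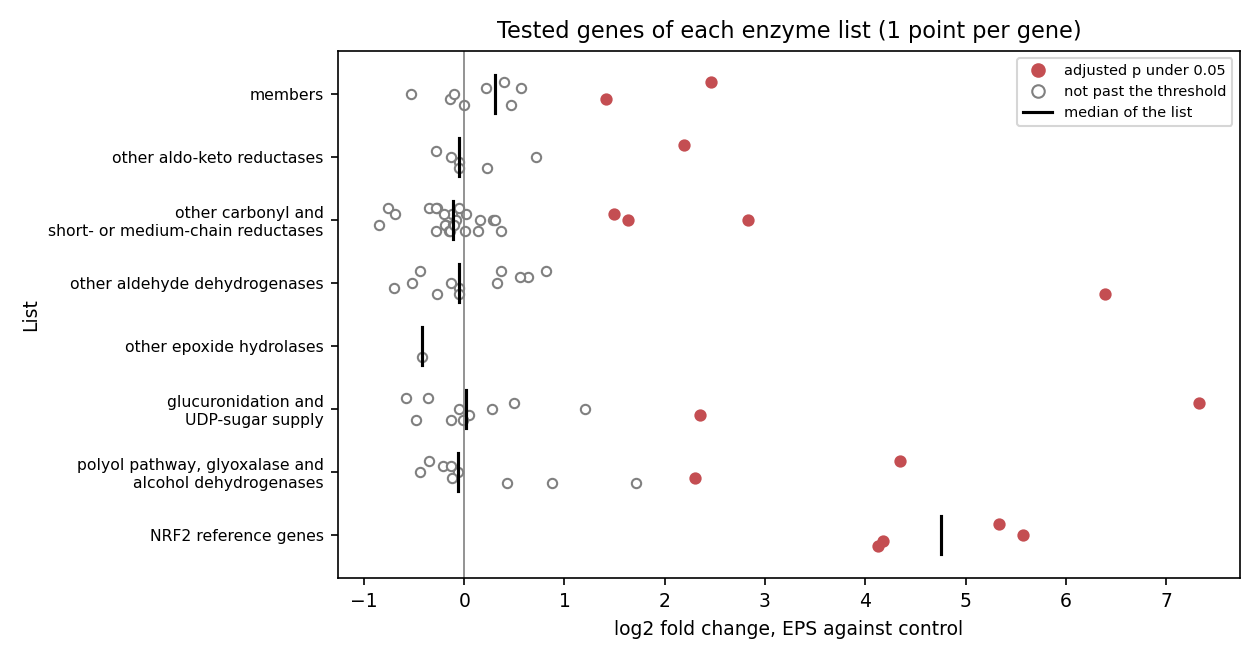
Log2 fold change of every tested gene in the 10 enzymes, the 6 related lists and 4 reference genes of NRF2, with 1 point per gene, filled where the adjusted p was under 0.05, and a black bar for each median. Medians of the 6 related lists lie between -0.42 and 0.02, while single genes such as Aldh3a1 and Adh7 reach 6.39 and 4.34.

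As a reference for NRF2 targets outside these lists, Nqo1, Hmox1, Gclm and Srxn1 all rose, with log2 fold changes of 5.33, 5.58, 4.13 and 4.18. These 4 were chosen with earlier results known and are not independent evidence of a direction. The log2 fold changes of Cbr3, 2.46, and Ephx1, 1.41, were below all 4.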

How the data were processed

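Total RNA of C2C12 myotubes was made into libraries with a stranded kit, per the labels. Groups came from the sample titles; the 16 samples are 8 libraries on 2 lanes each. Tools in the submitters' processing notes are STAR 2.5.1, Cufflinks and Cuffdiff 2.2.1, with the build mm10. Per the file headers, the authors deposited Cuffdiff's estimated counts (raw fragments per gene and library) and FPKM. The sources used here give neither the strand setting nor the annotation used for counting. Of the deposited estimated counts above 0, 93.3% were whole numbers, and each was rounded before testing. Genes with skipped estimates (46) were left out, while 9 with a failed FPKM kept their counts. Symbols and positions were matched by identifier to GENCODE M21 (48051 of 48432 identifiers).

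Counts were filtered with filterByExpr (minimum count 10, minimum total 15), TMM-scaled and fitted in R 4.3.3 by the quasi-likelihood method of edgeR 4.0.16 (with limma 3.58.1), over all 8 libraries with no covariate. P-values were adjusted by Benjamini-Hochberg over 13987 genes, with a threshold of 0.05. Standard errors were derived from the F statistic and are approximate. Log2 ratios used a prior count of 2 and exact permutation tests (scipy 1.17.1). Of the tests used, only the edgeR fit without a block was run on simulated data. The members and lists were chosen with earlier results of these data known. The rule for related genes named every called gene of a list, up to 4, or else its most abundant tested gene. Genes called only under the replicate block were named after their values were seen.

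The labels do not say what a replicate number marks. Deviations from group means of same-numbered control and EPS libraries correlated at 0.30, 0.21, 0.29 and 0.30 across genes for numbers 1 to 4. Each was above 0.1, so the numbers were taken to pair the libraries in the fit with a block only. Unlike numbers 3 and 4 correlated at 0.25 (control 4, EPS 3) and 0.23 (control 3, EPS 4), both above the value for number 2, so these correlations barely tell numbers 3 and 4 apart. A fit with the replicate number as a block is given where it changes a call. The main edgeR fit and the permutation tests of ratios treated the libraries as unpaired, so their p-values ignore any pairing. Alternatives were RLE and upper-quartile scaling, no filter, length offsets, DESeq2 1.42.0, limma on log2 FPKM with pseudocounts of 0.1 and 1, replicate numbers 1 and 2 or 3 and 4 alone, each library left out, and, added after seeing the data, near-identical copies.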

Additional observations from a re-analysis of the deposited data

Results flagged for a closer look

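Single libraries standing far from the other 3 of their group were looked for in 30 sets of values, the levels of the 10 enzymes and the 5 ratios in each group. Such gaps appear by chance in about 1 in 20 groups, and 5 were found. Akr1b3 was at 45.2 CPM in EPS replicate 2, above the other EPS libraries at 31.3 to 33.0 CPM. Cbr1 was at 11.3 CPM in the same library, below the others at 19.9 to 20.5 CPM. The log2 ratio of Cbr3 to Cbr1 was -7.65 in control replicate 2, which had 0 fragments of Cbr3, against -2.37 to -1.97 in the other controls. In the same shallow library the log2 ratio of Akr1b8 to Akr1b3 was 0.41, against 1.38 to 1.51. The log2 ratio of Aldh3a2 to Aldh2 was -2.44 in EPS replicate 1, the library with the highest Aldh2, against -1.95 to -1.86.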

How the results depend on the processing

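Each enzyme was refitted under 20 alternatives. The number higher in EPS, 2 without a block, was 4 with the replicate block, 3 with length offsets and block, 3 by DESeq2, 1 from replicates 1 and 2 alone, 4 from replicates 3 and 4 alone, and 0 and 1 by limma on log2(FPKM + 0.1) and log2(FPKM + 1), and the number lower was 0 throughout. Over all genes the counts higher and lower were 1023 and 668 of 13987 with the replicate block, and 659 and 288 of 15245 by DESeq2. Limma gave 94 and 29 with 0.1 and 130 and 48 with 1, of 13987 each. Replicates 1 and 2 gave 510 and 124 of 14331, and replicates 3 and 4 gave 1156 and 1121 of 14172. Length offsets gave 337 and 226, and offsets with the block 1002 and 906, of 13987 each. No filter gave 447 and 162 of 24913. With 1 library left out the counts were 92 to 427 and 22 to 167, of 14156 to 14387 genes. Cbr3, Ephx1, Aldh2, Aldh3a2, Akr1b3, Akr1b10 and Ugdh kept their direction in all 20. Akr1a1, at 0.00, turned to -0.0076 with RLE, -0.055 with upper-quartile scaling, -0.044 with no filter, -0.026 with length offsets, -0.019 with offsets and block, -0.033 from replicates 3 and 4, -0.014 by DESeq2, -0.0056 and -0.0055 by limma with 0.1 and 1, and -0.13 to 0.10 with 1 library left out. Akr1b8 turned to 0.051 from replicates 3 and 4. Cbr1 turned to 0.031 with the replicate block, 0.035 with offsets and block, 0.14 from replicates 3 and 4, and ranged from -0.19 to 0.070 with 1 library left out. The ratio of Aldh3a2 to Aldh2 ranged from -0.21 to 0.017 with 1 library left out. Causes were not tested. With no filter the median of all genes shifted to 0.15. Depth limits control replicate 2, where the 10 enzymes had 0 to 66 fragments each. Aldh2 passed under 4 alternatives and Aldh3a2 under 2, and the replicate block changed no other call among the 10 enzymes. With 3 against 4 libraries the exact permutation tests of ratios cannot go below p = 0.0571.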
